A study of Mus musculus with 7 samples.

Results

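A set of 9 genes that mark resting microglia was followed across the cells of mouse glioma, with the genes taken by name from the rule that defines the set. They are Sall1, P2ry12, P2ry13, Gpr34, Cx3cr1, Tmem119, Fcrls, Sparc and Olfml3, and all 9 were found among the 55491 gene rows of the matrix. The question was how far each transcript sets microglia apart from the macrophages that enter a tumour from the blood. Single-cell libraries were made from 7 mice, with 1 library per mouse. The 4 mice labelled Siglece KO (KO here) were Sall1CreERT2 x Siglecefl/fl, in which a tamoxifen-inducible Cre is expressed from the Sall1 gene and acts where Sall1 is active, and the 3 WT mice carried the Siglecefl/fl alleles without that driver. All mice received CT-2A glioma cells, a mouse glioma line, in the brain at 8 to 12 weeks of age, and both genotypes received 2.5 mg of tamoxifen per injection, daily from day 7 to day 21 and every other day after that. Live cells positive for CD45, CD11b or both were sorted from the thawed suspension of the tumour-bearing hemisphere, so cells without these surface proteins are under-represented.

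Microglia are the resident macrophages of the brain and settle there before birth, whereas the monocyte-derived macrophages of a glioma arrive from the bone marrow. In undisturbed brain, microglia hold a set of genes for sensing nucleotides, lipids and neuronal signals, and they need TGF-beta signalling and the transcription factor Sall1 to keep it. In disease, microglia can lose part of that set, and macrophages that settle in the brain can gain part of it.

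The genes lie on 6 chromosomes in the RefSeq annotation of mouse build GRCm38.p6. P2ry13 (chromosome 3, 59207892 to 59210882) and P2ry12 (chromosome 3, 59216271 to 59262985) are neighbours on the minus strand, with 5388 bases between them in that annotation, and both lie within Med12l, which runs on the plus strand. Fcrls (chromosome 3, 87250736 to 87263765), Olfml3 (chromosome 3, 103735394 to 103738001), Tmem119 (chromosome 5, 113793729 to 113800396), Sall1 (chromosome 8, 89027242 to 89044162), Cx3cr1 (chromosome 9, 120048683 to 120068296) and Sparc (chromosome 11, 55394159 to 55420080) are also on the minus strand. Gpr34 (chromosome X, 13622650 to 13640859) lies inside Cask, on the opposite strand. The RefSeq table also places Gm3134 over Sall1 and Gm33858 over Cx3cr1. Cx3cr1's model in GENCODE M21 is longer and overlaps 9 other genes, 3 of them on its own strand. Reads from overlapping genes could have been split or lost in the authors' counting, whose annotation and strand setting are not given in the sources used here.

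Promoter windows, from 250 bases before to 50 bases after the start site, were found in the RefSeq table for 7 of the 9 genes. Those of P2ry12 and P2ry13 are shown because each of these neighbours had the other as the gene of the set most like it, and that of Fcrls because it separated microglia from macrophages least. They were searched on both strands for GAGGAA, the core of sites bound by PU.1, the factor that defines the macrophage lineage, and a match is in capitals. All 3 windows, chr3:59262936-59263235 for P2ry12, chr3:59210833-59211132 for P2ry13 and chr3:87263475-87263774 for Fcrls, are on the minus strand of GRCm38.p6 and are written 5′ to 3′ in the direction of transcription.
P2ry12: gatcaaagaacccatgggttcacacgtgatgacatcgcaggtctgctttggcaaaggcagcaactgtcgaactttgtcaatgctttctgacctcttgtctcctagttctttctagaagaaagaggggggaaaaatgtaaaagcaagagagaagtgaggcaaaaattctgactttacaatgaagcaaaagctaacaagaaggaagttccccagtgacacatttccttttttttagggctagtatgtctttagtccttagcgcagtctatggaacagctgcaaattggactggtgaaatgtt
P2ry13: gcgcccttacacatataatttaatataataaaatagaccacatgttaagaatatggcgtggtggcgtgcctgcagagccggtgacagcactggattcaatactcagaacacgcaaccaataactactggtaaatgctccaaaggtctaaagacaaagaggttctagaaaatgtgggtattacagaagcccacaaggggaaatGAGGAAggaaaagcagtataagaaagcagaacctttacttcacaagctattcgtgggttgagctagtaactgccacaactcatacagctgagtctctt
Fcrls: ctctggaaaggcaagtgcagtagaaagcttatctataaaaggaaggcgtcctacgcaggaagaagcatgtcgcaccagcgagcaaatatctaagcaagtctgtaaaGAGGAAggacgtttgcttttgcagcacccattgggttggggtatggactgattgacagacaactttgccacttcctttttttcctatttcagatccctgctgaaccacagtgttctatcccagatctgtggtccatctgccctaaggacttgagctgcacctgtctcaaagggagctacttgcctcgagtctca
The core starts at position -48 relative to the start site in P2ry13 and at -144 in Fcrls, and it was in the windows of 2 of the 7 genes. Of 32851 promoter windows of all genes, 28.3% held it. The MEF2 motif, searched in the same way, was in the windows of 0 of the 7 genes and in 3.19% of all windows. The 7 genes have 9 windows in the table, so the like share is 2 of 9 windows, which does not set the genes apart, and no match in these windows bears on the binding of either factor.

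The matrix held 28644 cells and 207882564 UMIs (unique molecular identifiers, each standing for 1 captured transcript), with 1410 to 5856 cells and a median of 4479 to 9554 UMIs per cell in a library. The authors' annotation gave 23 cell names, which were joined into 9 classes. Microglia numbered 414 cells, in a main group of 163 cells with a median of 6226 UMIs and a second group named low-quality or activated, of 251 cells with a median of 2222 UMIs. The comparator was the 7477 monocyte-derived cells, named Monocytes (P1-P2) and Macrophages (P3), (P5) and (Proliferating). KO replicate 3 had 13 microglia and was left out wherever 20 cells per library were required, and the other 6 libraries had between 21 and 113. Of 8 microglia markers outside the set, 7 were highest in the class named microglia, the exception being Siglech, which was highest in plasmacytoid dendritic cells. Of 12 monocyte-derived markers, 4 were highest in the monocyte-derived class, and 5 others were highest in dendritic cells, plasmacytoid, conventional or monocyte-derived. Of 8 markers of border-associated macrophages, 5 were highest in the monocyte-derived class. In microglia these 5 were at 1.94 (Cbr2) to 84.2 (Ms4a7) UMIs per 1000000. Siglec1 was highest in microglia, at 82.6 against 78.1 in monocyte-derived cells. Lyve1 and Cd163 were at 0 in microglia, but only at 0.0106 and 0.146 in monocyte-derived cells, so they do not tell these classes apart. Of 28178 distinct barcodes, 460 occurred in more than 1 library.

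All 9 genes had a higher mean in microglia than in monocyte-derived cells, by 3.20-fold (Fcrls) to 95.7-fold (Sall1). Levels are given as CPM, the UMIs of a gene per 1000000 UMIs of that class and library, and folds are ratios of the means over the 6 libraries with at least 20 cells of both classes. In 8 of the 9 genes the lowest microglia library was above the highest monocyte-derived library, whereas 9.93% of the 17244 genes with enough UMIs did this and 8.98% did the reverse. The median fold of the 9 was 8.86, against 1.34 over all those genes. Because the method behind the annotation is not given in the sources used here, the names may rest on these same genes, and the comparison is a description with no test.

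**Figure D1:**
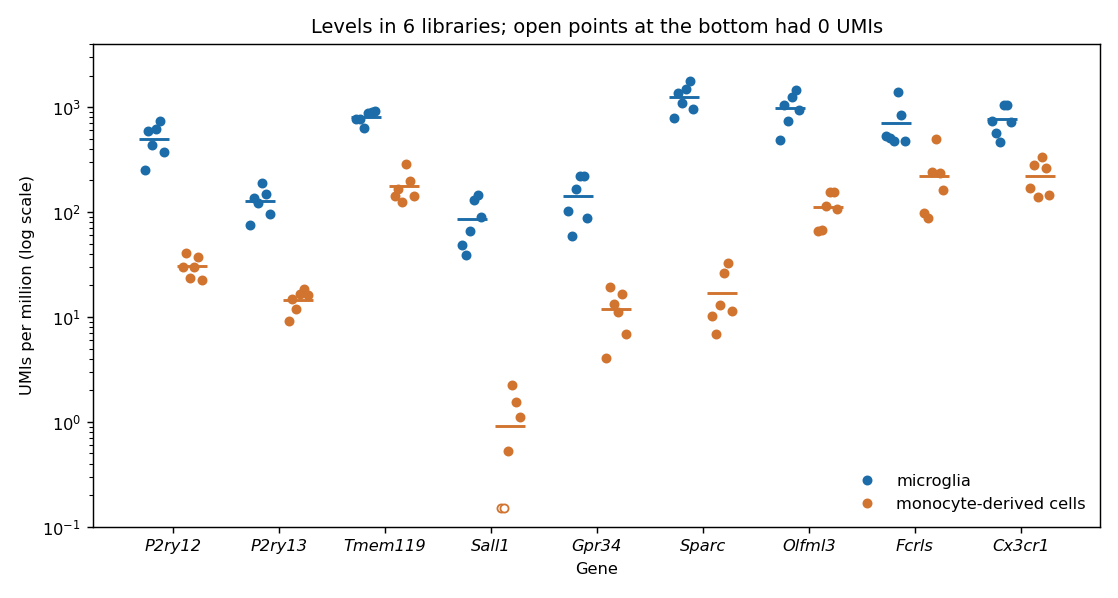
Levels of the 9 genes (UMIs per 1000000, log scale) in microglia (blue) and monocyte-derived cells (orange). Each point is 1 of 6 libraries and each line a mean; open points had 0 UMIs, and the groups overlap only for Fcrls.

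Sall1, a zinc-finger transcription factor that maintains microglial identity, was the most restricted of the set. In microglia it was at 48.2, 39.1 and 66.6 CPM in KO replicates 1, 2 and 4 and at 130, 145 and 90.1 CPM in WT replicates 1 to 3. In monocyte-derived cells it had no UMI in KO replicates 1, 2 and 3, and it was at 0.533 CPM (3 UMIs) in KO replicate 4 and at 2.24, 1.53 and 1.12 CPM (30, 15 and 13 UMIs) in the WT replicates. Every microglia library was far above every monocyte-derived one. The fold was 58.1 to 125 in the 4 libraries with UMIs in both classes. In KO replicates 1 and 2 it was 75.2 and 74.0 with 3 counts per library in place of 0. These values take the microglia level as measured and leave out its counting error, so they are not lower bounds of the fold. All KO microglia together held 27 Sall1 UMIs. Sall1 ranked 51 of 17244 genes by its ratio. Microglia made up 1.45% of the cells and held 59.8% of all Sall1 UMIs, with a further 13.6% in tumour or stromal cells, which had the next level (5.13 ± 1.61 CPM, SD).

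Sall1 UMIs outside microglia were not spread evenly over macrophages. Macrophages (P5) held 41 of them in 26 cells, and all 41 were in cells that also had UMIs of at least 2 other genes of the set, as had 81.2% of all cells with that name. One cell named P5 had 5 Sall1 UMIs, and 39 of the 41 were in WT mice. Proliferating macrophages held 8 Sall1 UMIs in 4 cells, all 8 in cells with UMIs of at least 2 other genes of the set. Depth was not held equal in these counts. Pooled over both genotypes, levels were 1.57 CPM in P5 and 1.72 CPM in proliferating macrophages, against 0.417 CPM in P3 and 0.643 CPM in monocytes. The difference between P5 and P3 was seen in WT mice (2.39 and 0.574 CPM). In KO mice the levels were 0.204 CPM (2 UMIs) in P5 and 0.176 CPM (1 UMI) in P3. Microglia under a macrophage name, and doublets of both, were not tested as a source.

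P2ry12, the ADP receptor by which microglial processes find injury, was at 252, 587 and 433 CPM in KO microglia (replicates 1, 2 and 4) and at 623, 739 and 376 CPM in WT microglia. In monocyte-derived cells it was at 29.7, 40.7, 42.4 and 23.3 CPM in the 4 KO libraries and at 30.0, 37.4 and 22.6 CPM in the WT ones. The fold was 16.4, with single libraries at 8.48 (KO replicate 1) to 20.7 (WT replicate 1). Among the monocyte-derived names P2ry12 was at 24.8 CPM in Monocytes (P1-P2) and 23.9 CPM in Macrophages (P3), and it was highest in Macrophages (P5), at 39.1 ± 8.8 CPM (SD, n = 7), above P3 in 7 of 7 libraries.

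P2ry13, a second ADP receptor encoded beside P2ry12, was at 75.0, 137 and 122 CPM in KO microglia and 190, 150 and 95.4 CPM in WT microglia. It was at 9.19, 15, 18.9 and 11.9 CPM in the KO and 16.6, 18.3 and 16.1 CPM in the WT monocyte-derived cells, a fold of 8.83 (5.92 to 11.4). Its highest level outside microglia was in plasmacytoid dendritic cells, at 28.2 ± 9.3 CPM (SD), where P2ry12 was at 27.3 CPM. This level was above that of Macrophages (P5), at 18.9 CPM. Across the 23 annotation names, the log2 levels of P2ry12 and P2ry13 had a Pearson r of 0.956, the highest either had with any gene of the set; the 23 points share libraries and depth, so r is a description.

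Gpr34, a receptor for lysophosphatidylserine, was at 102, 58.7 and 167 CPM in KO microglia and 218, 222 and 87.5 CPM in WT microglia. In monocyte-derived cells it was at 4.06, 19.4, 15.1 and 13.3 CPM in KO and 11.2, 16.5 and 6.81 CPM in WT. On a log scale Gpr34 had the widest spread of folds between libraries in the set, from 3.03 in KO replicate 2, where microglia had 3 Gpr34 UMIs, to 25.1 in KO replicate 1, around a fold of 12.0. Outside microglia the highest level was in NK cells (18.7 ± 6.7 CPM, SD), next to Macrophages (P5) at 18.2 CPM and exhausted CD8+ T cells at 17.2 CPM. T cells, 47.8% of all cells, held 37.3% of all Gpr34 UMIs, and microglia, 1.45% of all cells, held 12.6%.

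Cx3cr1, the receptor for neuronal fractalkine that monocytes also carry, was at 734, 568 and 461 CPM in KO microglia and at 1045, 1041 and 726 CPM in WT microglia. It was at 169, 278, 235 and 139 CPM in the KO and 335, 263 and 146 CPM in the WT monocyte-derived cells. The classes did not overlap, but the fold was only 3.44 (2.04 to 4.96). Among monocyte-derived names it was at 87.5 CPM in monocytes, 136 CPM in Macrophages (P3) and 305 CPM in Macrophages (P5), and it was higher at each of these steps in 7 of 7 libraries. T cells, 47.8% of all cells, had 13.5% of its UMIs, with 46.5 CPM in the Th1 group.

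Tmem119, a transmembrane protein used to stain microglia in tissue, had the narrowest spread between microglia libraries relative to its mean, at 772, 763 and 628 CPM in KO and 874, 901 and 928 CPM in WT. In monocyte-derived cells it was at 142, 164, 145 and 124 CPM in KO and 290, 198 and 141 CPM in WT. The fold was 4.59 (3.01 to 6.57). Tmem119 was higher in Macrophages (P3) than in monocytes, and in Macrophages (P5) than in P3, in 7 of 7 libraries, going from 45.7 to 131 to 227 CPM. The proliferating macrophages were highest outside microglia, at 240.5 ± 106.5 CPM (SD).

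Fcrls, an Fc receptor-like surface protein, separated the classes least. It was at 530.5, 509 and 478 CPM in KO microglia and at 1408, 845 and 472 CPM in WT microglia, and in monocyte-derived cells at 98.3, 88.5, 68.3 and 241 CPM in KO and 499, 235 and 162 CPM in WT. WT replicate 1 had the highest value in both classes, and its monocyte-derived cells were above the microglia of KO replicate 4 and WT replicate 3. Within each of the 6 libraries microglia were still higher, by 1.98-fold to 5.75-fold. Fcrls was 5.44 times as high in Macrophages (P5) as in P3 (313 against 57.5 CPM), higher in 7 of 7 libraries and the largest such step in the set. Macrophages (P5) and the low-quality or activated microglia overlapped in Fcrls: in the 5 libraries with both, the means were 386 and 364 CPM and the microglia were higher in 3 of 5. Monocyte-derived cells, 26.1% of all cells, held 83.6% of the Fcrls UMIs.

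Sparc, a secreted matrix-binding protein, was at 793, 1370.2 and 1105 CPM in KO microglia and 1495, 1775 and 960 CPM in WT microglia. In monocyte-derived cells it was at 10.3, 6.88, 5.94 and 13 CPM in KO and 26.5, 32.9 and 11.3 CPM in WT. The fold of 74.4 (54.0 to 199) was second to that of Sall1. It did not single out microglia among all cells, since tumour or stromal cells were at 572 ± 119 CPM (SD). Those cells were 1.34% of all cells and held 54.5% of the Sparc UMIs, against 1.45% and 27.5% for microglia. Low-quality or activated microglia, at 570 CPM, were level with tumour or stromal cells.

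Olfml3, a secreted olfactomedin-like protein, was at 488, 1037 and 733 CPM in KO microglia and 1247, 1461 and 930.4 CPM in WT microglia. It was at 65.4, 68.1, 82.6 and 114 CPM in the KO and 156, 156 and 107 CPM in the WT monocyte-derived cells, a fold of 8.86 (6.45 to 15.2). As with Tmem119 and Cx3cr1, its level was higher in P3 than in monocytes and in P5 than in P3 in 7 of 7 libraries, from 36.2 to 69.3 to 147 CPM.

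**Figure D2:**
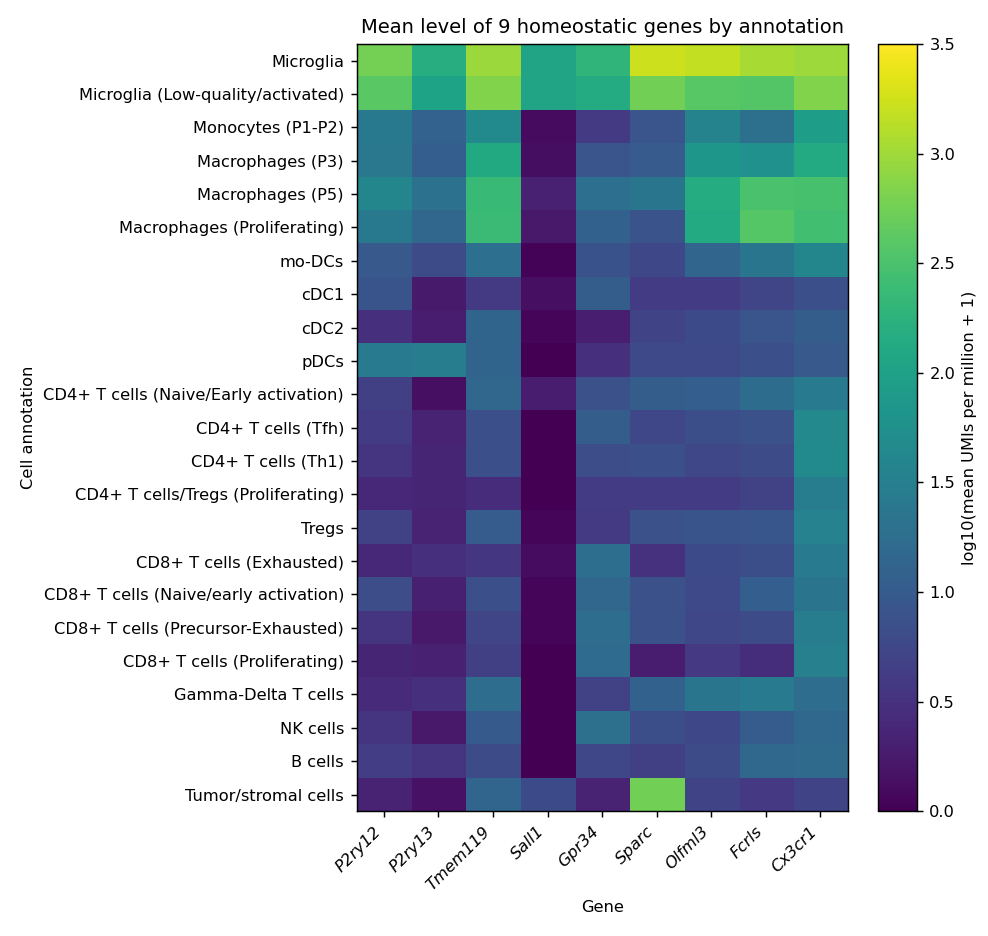
Mean level of each gene (columns; log10 of mean UMIs per 1000000 + 1) in each of the 23 annotation names (rows). The main microglia row is brightest for all genes but Sall1, where both microglia rows are level. Sparc is also high in tumour or stromal cells, and Tmem119, Olfml3, Fcrls and Cx3cr1 remain visible in the macrophage rows.

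Ratios between the 2 microglia names ranged widely between genes, and no test was run on them. In the 3 WT libraries with at least 20 cells of each, Sparc was 2.85 times, Olfml3 3.24 times and Fcrls 2.39 times as high in the main microglia as in the low-quality or activated ones, and each was higher in 3 of 3 libraries. Tmem119 was 1.24 times as high, also in 3 of 3 libraries. P2ry12 (1.09 times) and Sall1 (0.779 times) were higher in the main microglia in 2 of 3 libraries. The low-quality or activated cells also had fewer UMIs, a higher median share of mitochondrial UMIs (4.77% against 2.06%) and a lower share of ribosomal UMIs (2.58% against 10.3%). The part of RNA quality in the differences was not tested.

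**Figure D3:**
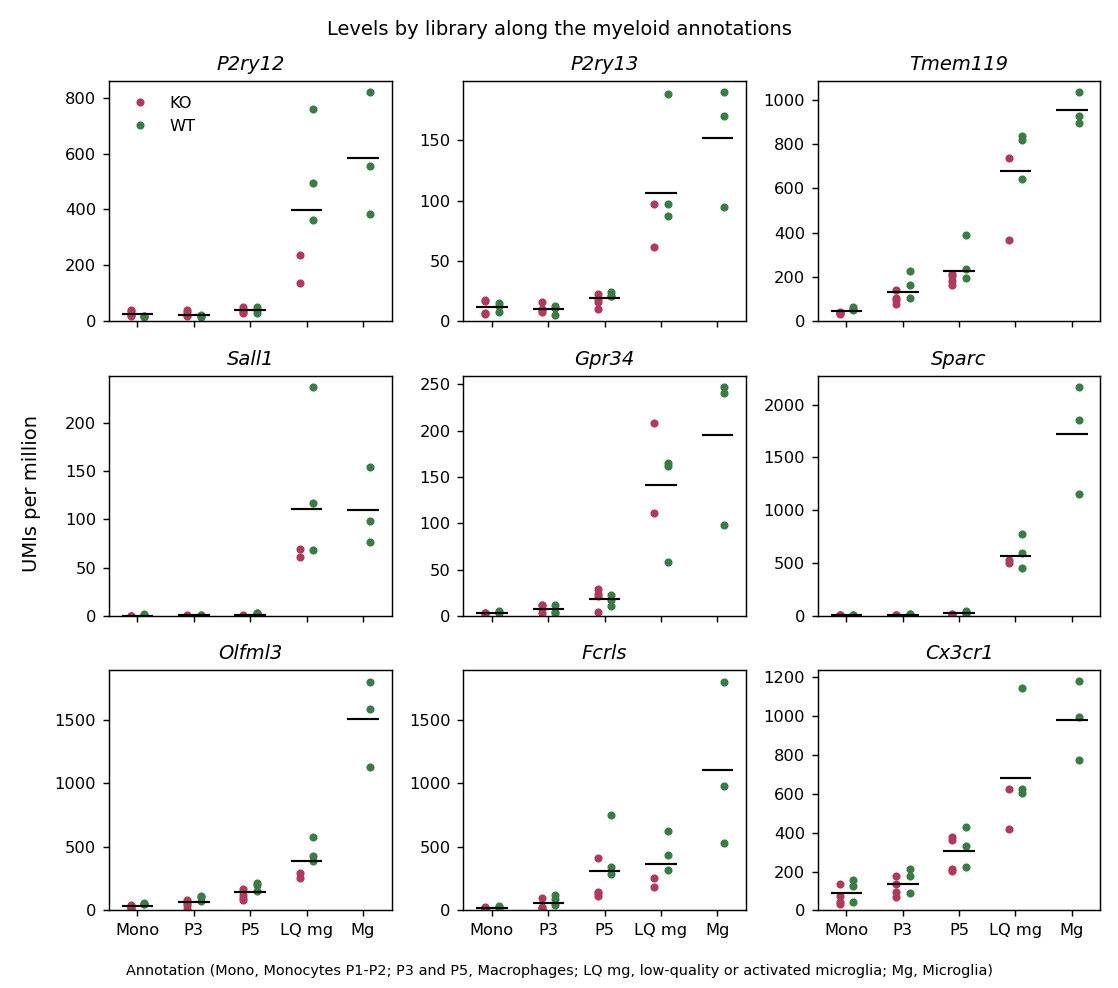
Level of each gene (UMIs per 1000000, linear axes from 0) in 5 myeloid names, with 1 point per library of at least 20 cells (red KO, green WT) and a line at the mean. Tmem119, Olfml3, Fcrls and Cx3cr1 step up from monocytes to Macrophages (P5), whereas Sall1 and Sparc stay near 0 until microglia.

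Shares of cells with a UMI were compared with depth held equal. Each cell was thinned to 1500 UMIs, which left out 41 microglia and 53 monocyte-derived cells. Shares are means over libraries with at least 20 cells kept. These were 5 for microglia (without KO replicates 2 and 3), 7 for monocyte-derived cells and T cells, and 6 for B cells, so the classes rest on unlike sets of mice. Sall1 had a UMI in 15% of microglia and 0.0696% of monocyte-derived cells, and Sparc in 63.0% and 1.64%. T cells, which should lack most of these genes, had a UMI of Sall1 in 0.0157% and of Sparc in 0.875% of cells. For Gpr34 the shares were 20.8% of microglia, 1.63% of monocyte-derived cells and 1.74% of T cells; T cells held many of its UMIs, and the share in B cells, which held few, was 0.557%. The shares for P2ry12 were 38.9% of microglia, 4.53% of monocyte-derived cells and 0.582% of T cells, and for P2ry13 16.2%, 2.20% and 0.167%. Cx3cr1 had a UMI in 57.4%, 24.1% and 4.26% of these classes, Tmem119 in 58.3%, 18.5% and 1.29%, Olfml3 in 52.7%, 12.9% and 1.25%, and Fcrls in 41.2%, 17.6% and 1.54%. In B cells the shares of these 4 genes were 2.79%, 0.604%, 0.83% and 4.08%, each below that in monocyte-derived cells. The part of free RNA in these shares was not tested. Median depths before thinning were 3058.5 UMIs in microglia, 6245 in monocyte-derived cells and 4748 in T cells. The unthinned microglia share, over 6 libraries, was 26.5% for Sall1 and 68.0% for Sparc.

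The number of these genes seen in the same cell also differed between the names. At 1500 UMIs a cell of the main microglia had UMIs of 4.58 of the 9 genes on average and a low-quality or activated one 3.23, against 0.336 in monocytes, 0.617 in Macrophages (P3), 1.25 in Macrophages (P5) and 1.38 in proliferating macrophages. At least 5 genes were seen in 84 of 163 main microglia and 58 of 210 low-quality or activated ones. Among macrophages this occurred in 19 of 3422 cells named P5, 3 of 401 proliferating cells and 0 of 2084 cells named P3 (a count of 0 allows up to 0.144%). One P5 cell had 8 of the 9.

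**Figure D4:**
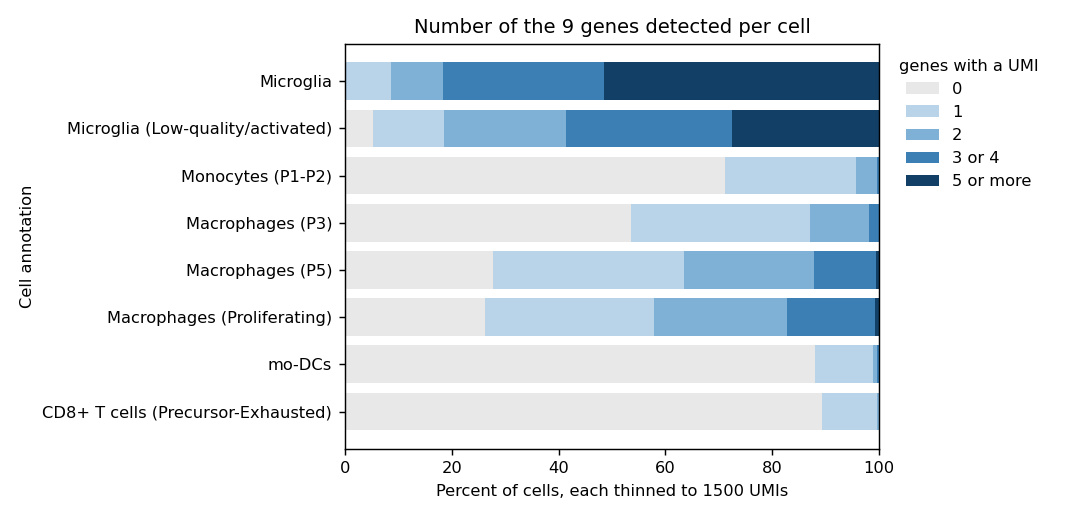
Share of cells (percent, after thinning each to 1500 UMIs) by how many of the 9 genes had a UMI, for 8 annotation names. Both microglia bars are mostly 3 or more genes; macrophage bars are mostly 0 to 2, and monocytes, mo-DCs and T cells mostly 0.

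A further list had a smaller median ratio. In this list of 30 homeostatic genes, 23 were higher in microglia without overlap and 0 lower, with a median fold of 4.18, against 9.93% of all genes higher, 8.98% lower and a median of 1.34. Slc2a5, a fructose transporter (161-fold, from 67 UMIs in microglia and 13 in monocyte-derived cells), Nav3 (138-fold, from 462 and 119 UMIs) and Adgrg1, an adhesion receptor (99.3-fold, from 212 and 65 UMIs), had ratios above that of Sall1. Upk1b, a tetraspanin, had the highest ratio of means, but it had 15 UMIs in microglia, none of them in 3 of the 6 libraries, and 1 UMI in monocyte-derived cells, so no fold is given. Nrros, which anchors latent TGF-beta (1.06-fold), and Ctss, a lysosomal protease (1.17-fold), were among the smallest. Of 12 genes of TGF-beta signalling, 8 were higher without overlap and the median fold was 2.09, beside the same 9.93% and 1.34 over all genes. The receptors Tgfbr1 (3.86-fold) and Tgfbr2 (3.83-fold) were higher, and the ligand Tgfb1 was 0.914 times as high in microglia.

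Outside the set, genes whose pattern over the 23 names was among the most like the mean of the 9 were Slco2b1 (Pearson r = 0.967), C4b (0.964), Phyhd1 (0.964), Gas6 (0.963), Gm21860 (0.960), Scamp5 (0.960), Ptgs1 (0.953), G530011O06Rik (0.948) and Ctsf (0.944), among 3084 genes compared. Only Gm21860 of these genes had an SD over microglia libraries above its mean (85.8 ± 98.5 CPM). Of the set itself Olfml3 was nearest to the mean (0.967) and Gpr34 (0.760) and Sparc (0.766) farthest. Slco2b1, an organic anion transporter, was 26.5-fold higher in microglia than in monocyte-derived cells.

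In the comparison of genotypes, none of the 9 genes passed the test in microglia. At an edgeR adjusted p under 0.05, 2 of 4820 genes (0.0415%) were called and 0 of them were members of the set; 570 genes had an unadjusted p under 0.05, and DESeq2 called 6. All 9 log2 estimates of KO over WT were negative, with a median of -0.55, against 0.00 over all genes tested, of which 2407 of 4820 were negative. In low-quality or activated microglia alone the direction of Gpr34 turned, from -0.55 to 0.27 (edgeR adjusted p = 0.969), and the other 8 estimates were negative. The groups were 3 and 3 libraries.

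Sall1 had the largest estimate, -1.16 (SE 0.34, adjusted p = 0.140), with 51.4 ± 14 CPM in KO and 122 ± 28 CPM in WT (SD, n = 3 each). All KO libraries were below all WT libraries for Sall1 and for Tmem119 (722 ± 81 and 901 ± 27 CPM; log2 -0.34, SE 0.23, adjusted p = 0.581), a pattern that 9.75% of all genes had and 8.9% had in the other direction. The Cre driver lies in the Sall1 gene of KO mice only, so its effect on Sall1 and that of Siglece loss cannot be told apart. Fcrls (-0.85, SE 0.30, adjusted p = 0.243), Olfml3 (-0.75, SE 0.26, adjusted p = 0.227) and Cx3cr1 (-0.68, SE 0.25, adjusted p = 0.252) followed in size. For the receptors P2ry12, P2ry13 and Gpr34 the estimates were -0.54 (SE 0.29), -0.49 (SE 0.31) and -0.55 (SE 0.37), with edgeR adjusted p of 0.474, 0.543 and 0.589, and for Sparc -0.41 (SE 0.25, adjusted p = 0.532). WT replicate 3 was the lowest WT library for 8 of the 9 genes and lay within the range of the KO values for 6. It was the only female WT library, by Xist and Y-linked transcripts, whereas KO replicates 1 and 2 were female and KO replicate 4 male. With sex as a term edgeR called 10 of 4820 genes, and 0 of the 9.

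**Figure D5:**
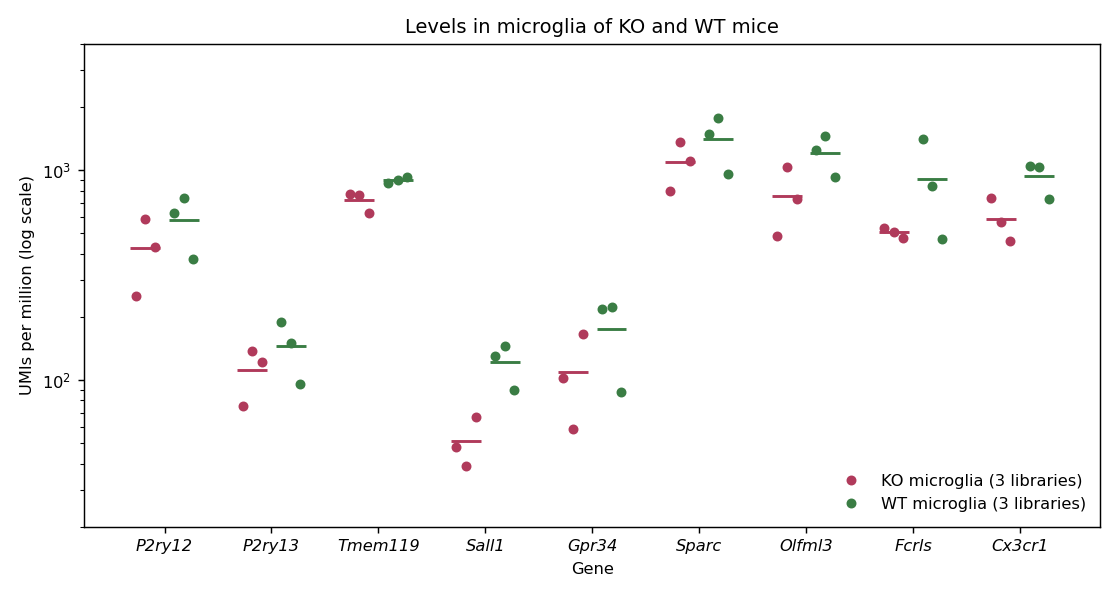
Levels of the 9 genes in microglia (UMIs per 1000000, log scale) of KO (red) and WT (green) mice, 1 point per library with a line at the mean. Only Sall1 and Tmem119 have all KO points below all WT points.

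The make-up of the 2 groups of microglia also differed. Low-quality or activated cells were 66.7%, 66.7% and 69.4% of the KO microglia tested and 61.1%, 47.8% and 59.4% of the WT microglia. Within that name alone, with 2 KO and 3 WT libraries of at least 20 cells, P2ry12 passed in edgeR (log2 -1.59, adjusted p = 0.0464), in a fit that called 5 of 2350 genes (0.213%). P2ry12 was at 135 and 236 CPM in the 2 KO libraries tested and at 360 to 759 CPM in the 3 WT libraries. Pooled over all cells of that name, KO libraries outside the fit included, it had 50 UMIs in KO and 229 in WT. These are 233 CPM (173 to 307, exact 95% Poisson interval for counting error only) against 586 (512 to 666), so the pooled KO level is near the higher tested library. Gpr34 went the other way there, with 38 UMIs in all KO and 53 in all WT cells, or 177 CPM (125 to 243) against 136 (102 to 177), intervals that overlap. The other 7 genes had negative estimates from -0.26 (Sparc) to -1.21 (Sall1), and none passed. In the main microglia the P2ry12 estimate was -0.02 (edgeR adjusted p = 1.00), from 120 KO and 564 WT UMIs. This fit used a minimum of 5 cells per library in place of 20, since KO replicates 1, 2 and 4 had 10, 7 and 15 such cells and the WT replicates 44, 48 and 39; it was added as an alternative after the data had been seen, and the difference between the 2 names was not tested. Summed markers of T cells were higher in KO microglia (69.7 to 139 CPM over 8 markers) than in WT microglia (14.4 to 41.1 CPM), and the same held in monocyte-derived cells (54.6 to 84.5 against 15.7 to 35.7 CPM). In monocyte-derived cells the summed markers of plasmacytoid dendritic cells were lower in KO (466 to 870 CPM over 7 markers) than in WT (955 to 1191 CPM). That sum rests mainly on Bst2 (mean 724 CPM) and Tcf4 (95.5 CPM). Ccr9, Ly6d, Klk1, Cox6a2 and Siglech were at 2.18 to 5.34 CPM there. The 8 microglia markers outside the set summed to 3012 to 5207 CPM in KO and 4954 to 5908 CPM in WT, which overlap. Their part in the estimates was not tested.

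Neither wider list had a called gene in this comparison. Of 28 further homeostatic genes tested in microglia, 0 were called and 23 had negative estimates, while 2407 of all 4820 genes did. Among the 28, 6 had all KO libraries below all WT libraries and 2 had all above, against 470 and 429 of the 4820. Of 11 TGF-beta genes 0 were called and 7 had positive estimates, against 2413 of the 4820, and 1 was below and 2 were above without overlap.

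In monocyte-derived cells (4 KO and 3 WT libraries) 0 of 11943 genes (0%) were called by edgeR. An unadjusted p under 0.05 was seen for 674 genes, and DESeq2 called 20. Of the 8 genes tested, 6 estimates were negative, and 0 had groups that did not overlap (3.47% of all genes were lower and 2.74% higher in KO without overlap). Sparc (log2 -1.34, SE 0.39, adjusted p = 0.827) and Fcrls (-1.22, SE 0.50, adjusted p = 0.855) had the largest estimates, and P2ry12 (0.18, SE 0.22, adjusted p = 0.95) and Gpr34 (0.19, SE 0.45, adjusted p = 0.965) were positive. Sall1 was below the filter on low counts and was not tested. It had 3 UMIs in KO and 58 in WT, and each KO library was below each WT library in the CPM values given for Sall1 by library.

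A class-by-genotype term tested the difference between the KO effects in the 2 classes (microglia minus monocyte-derived cells), and edgeR called it in 62 of 11858 genes (0.523%). None of the 9 was called; P2ry12 had the lowest p, with an estimate of -0.74 (SE 0.26, adjusted p = 0.175), set against a median of -0.16 over all genes. It passed without KO replicate 4 (-1.04, adjusted p = 0.0479), where 114 of 12197 genes (0.935%) were called, and not in the other alternatives, down to -0.41 without KO replicate 1. Of the further homeostatic list, 1 of 30 was called: Crybb1, a crystallin used as a microglia marker, at 2.15 (SE 0.55, adjusted p = 0.0237), and it did not pass without KO replicate 2 (1.33, adjusted p = 0.446), KO replicate 4, WT replicate 1 or WT replicate 2.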

How the data were processed

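Single-cell RNA was measured in 7 mice (4 KO, 3 WT), with 1 library each. Per the submitters' processing notes, the authors used STARsolo with STAR 2.7.10a and FastQC 0.11.5 on build mm10; the cell filters, doublet removal and annotation method are not given in the sources used here. The deposited values are expected counts, UMIs of which 8.71% lie in values that are not whole (0 such values among the 9 genes). No doublets were removed here; an alternative left out the 5% of cells with most UMIs in each library.

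For each mouse, the UMIs of all cells of a class were added up and rounded, and classes with fewer than 20 cells in a library were left out there. The percent of mitochondrial and ribosomal UMIs and the count of detected genes per cell are the authors' deposited values. Genes were ranked by ratio where they had at least 10 UMIs. Genotypes were compared in edgeR 4.0.16 (TMM scaling, quasi-likelihood test, Benjamini-Hochberg threshold 0.05 over all genes tested) in R 4.3.3, with DESeq2 1.42.0 as an alternative; every adjusted p not named otherwise is from edgeR. The fits were also run on simulated counts, and the outcome is not reported here. Each SE of an edgeR estimate was worked back from the test, as the size of the estimate divided by the square root of its F value. It is thus an approximation and not a direct output of the fit. Each library is 1 mouse, so p-values measure the spread between mice. Intervals cover counting error only. The 9 genes, lists and classes were chosen with earlier results of these data known. The genes named were the 9 members, the 3 largest and 3 smallest ratios and any call of the further homeostatic list, and the 10 genes nearest to the mean pattern, by Pearson r of log2(mean CPM + 1) over the annotation names among genes with at least 100 UMIs in microglia; Adgrg1, Tgfbr1, Tgfbr2 and Tgfb1 were named after their values were seen. Some genes that this rule names are not reported here. Gene positions and promoter windows came from RefSeq (GRCm38.p6), and no genome sequence was used.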

Additional observations from a re-analysis of the deposited data

Results flagged for a closer look

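Groups of 1 gene in 1 class were checked over the 4 KO libraries, and the 3 WT libraries were not among them. In 5 of 52 such groups, 1 library stood apart from the others by a gap test at the 95% level. Chance alone gives this in about 1 of 20 groups. Each of the 5 rests on few UMIs. In the 3 for Sall1 the other libraries were at 0, which sets the gap by itself, so the number of groups is not read against chance. Sall1 stood apart at 0.533 CPM (3 UMIs) in the monocyte-derived cells of KO replicate 4, where the other KO libraries had none. It also stood apart at 0.605 CPM (1 UMI) in the mo-DCs of KO replicate 3 and at 0.343 CPM (2 UMIs) in the conventional dendritic cells of KO replicate 4. Sparc stood apart at 11.3 CPM (7 UMIs) in the plasmacytoid dendritic cells of KO replicate 1, and Olfml3 at 6.03 CPM (9 UMIs) in the NK cells of KO replicate 4.

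Crybb1, a microglia marker outside the 9 genes, had a genotype effect that differed between classes by a tested interaction of 2.15 on the log2 scale (SE 0.55, edgeR adjusted p = 0.0237). The log2 estimate of KO over WT was -1.13 (SE 0.59, adjusted p = 0.514) in microglia, with 153 ± 127 and 255 ± 105 CPM (SD, n = 3 each), and -3.58 (SE 0.50, unadjusted p = 4.7e-05, edgeR adjusted p = 0.562) in monocyte-derived cells, with 0.435 ± 0.357 CPM in 4 KO and 5.70 ± 2.00 CPM in 3 WT libraries. In the latter class all KO libraries were below all WT libraries. The KO level there is near the floor, and KO replicate 3 had no Crybb1 UMI. Over the 6 libraries with both classes, Crybb1 had 213 UMIs in monocyte-derived cells and 384 in microglia. Of 28 further homeostatic genes tested in monocyte-derived cells, 22 had negative estimates and 6 positive, against 5982 and 5961 of all 11943 genes. In Serpine2, too, all KO libraries were below all WT libraries there (2.39 ± 1.09 and 5.90 ± 1.28 CPM). Microglia numbered 113 in KO and 301 in WT. Microglia or their RNA under a macrophage name were not tested as a source. The interaction did not pass without KO replicate 2 (1.33, adjusted p = 0.446), KO replicate 4 (2.23, adjusted p = 0.0738), WT replicate 1 (1.93, adjusted p = 0.203) or WT replicate 2 (1.99, adjusted p = 0.117), and DESeq2 gave it no adjusted p.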

How the results depend on the processing

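The count of genes above monocyte-derived cells without overlap stayed within 1.5 times of 8 in all 14 alternatives, and all 9 log2 ratios stayed positive, with 114 of 126 values within 1 SD of the main one. With low-quality or activated microglia alone the log2 ratio of Fcrls was 0.56 and that of Olfml3 1.70, against 1.68 and 3.15. No alternative called a member in microglia apart from P2ry12 in the low-quality or activated cells, and none called one in monocyte-derived cells.

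The counts of called genes were less stable. In microglia (2) DESeq2 called 6, no filter 41, whole-number values 4, sex as a term 10, the low-quality cells alone 5, the main microglia alone 1, and leaving out 1 replicate 3 to 15. In monocyte-derived cells (0) DESeq2 called 20, no filter 5, Macrophages (P5) alone 2, and leaving out 1 replicate 0 to 5. For the class-by-genotype term (62) DESeq2 called 18, no filter 37, at least 5 cells per library 24, and leaving out 1 replicate 11 to 114, the latter without KO replicate 4; the cause was not tested. With the replicate number as a block edgeR called 17 in microglia and 3 in monocyte-derived cells. Same-numbered libraries showed no common deviation (r of -0.087 and 0.037 in microglia, and 0.136, 0.088 and -0.223 in monocyte-derived cells). Differently numbered libraries had r of -0.088 to 0.116 in microglia and of -0.356 to 0.239 in monocyte-derived cells. No sign of pairing by number was seen, but so few values cannot settle it.

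Some signs turned. In microglia Gpr34 was -0.55 and became 0.27 in low-quality or activated microglia alone. In monocyte-derived cells P2ry12 was -0.040 in Macrophages (P5) alone, and Gpr34 ran from -0.068 to 0.55 when 1 replicate was left out. In the class-by-genotype term P2ry13 was 0.038 with DESeq2 and 0.026 with RLE scaling, Tmem119 was 0.067 with DESeq2, 0.078 with RLE scaling, 0.024 with no filter and 0.015 without the cells with most UMIs, and Fcrls was -0.091 at 5 cells per library. Leaving out 1 replicate gave -0.31 to 0.26 for P2ry13, -0.25 to 0.22 for Tmem119, -0.27 to 0.64 for Fcrls and -0.43 to 0.040 for Olfml3. The median over all genes in that term was -0.16, and -0.06 with RLE scaling.

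Depth sets limits. Of 36 shares of cells with a UMI at another depth, 33 moved by over 1 SD; the mean share over 5 libraries of microglia with a P2ry12 UMI was 38.9% at 1500 UMIs, where 373 cells were kept, and 60.7% at 3000, where 213 were, so depth and the cells kept both differ. KO microglia were 113 cells with 2 to 12 Sall1 UMIs per library, a pooled 59.4 CPM (39.1 to 86.4, exact 95% Poisson interval). The main microglia and Macrophages (P5) alone were added after the data had been seen.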
